A study of Mus musculus with 6 samples.

Results

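Expression of the contractile genes of smooth muscle was measured in the mucosa of mouse terminal ileum, where the small intestine ends. The genes were Smtn, Des, Flna, Acta2, Actg2, Myh11, Tagln, Cnn1, Mylk and Lmod1, and every probe set whose platform gene symbol was exactly 1 of these 10 was taken. They had 16 of the 45037 probe sets of the array that are not controls (6 genes with 1 probe set, 2 genes with 2 and 2 genes with 3), and all 10 were measured. The mice were 3-month-old females on a 129S6 background, either wild type or Duoxa-/-, and littermates of both genotypes shared a cage. Duoxa-/- mice lack maturation factors that the dual oxidases need to leave the endoplasmic reticulum and release hydrogen peroxide at the cell surface. The labels do not describe the construct of the deletion. Each of 3 cages held 1 litter and gave 1 wild-type and 1 Duoxa-/- pool of RNA from 2 to 3 animals, so that there were 3 wild-type and 3 Duoxa-/- arrays. Values are on the log2 scale, where 1 unit is a doubling of signal.

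Smooth muscle shortens when calcium and calmodulin activate myosin light chain kinase, which phosphorylates the regulatory light chain and lets myosin pull on actin filaments. The filaments are tied to the membrane and to one another by crosslinking proteins, by intermediate filaments and by dense bodies. In the gut, this machinery fills the outer muscle coat and also lies in the thin muscularis mucosae, in strands of the villus core and in vessel walls, so that mucosa taken from the wall always carries some of it. In RNA of whole mucosa, fewer muscle cells and less of these transcripts per cell cannot be told apart.

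Many of these genes are bound by serum response factor at a sequence called the CArG box. Their promoter sequences are shown as a description, and the part of this factor in the values was not tested. RefSeq promoter windows of build GRCm38.p6, from 250 bases before to 50 after a start site, were given for 7 of the 10 genes. Actg2, Myh11 and Tagln had none. None of the 7 held an exact CArG box, which 1.63% of all 32851 windows held. With 1 mismatch allowed, 3 of the 7 held a match, Acta2, Lmod1 and Flna, against 21.1% of all windows, and the search covers both strands because the motif reads the same on either. Acta2 and Lmod1 held 2 matches each, against 3.7% of windows with at least 2. The Acta2 elements begin 84 and 34 bases before the start site, at chr19:34255438-34255467 and chr19:34255388-34255417 on the minus strand. Those of Lmod1 begin 189 and 164 bases before it, at chr1:135324614-135324643 and chr1:135324639-135324668 on the plus strand. The Flna element begins 44 bases before it, at chrX:74246559-74246588 on the minus strand. The elements of Acta2 and Flna lie inside the RefSeq spans of these genes, which reach to 34255585 and 74249854. The start sites used for these 2 genes are thus internal to the spans. Capitals mark the element and lower case its flanks, and a match describes the letters and not a bound site.
Acta2, first element: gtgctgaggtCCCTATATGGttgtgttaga
Acta2, second element: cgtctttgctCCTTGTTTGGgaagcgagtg
Lmod1, first element: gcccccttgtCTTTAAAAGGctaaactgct
Lmod1, second element: ctgctctgtaCTAAATTTGGtcacgcagcg
Flna element: ctttcgcataCATTTAAAGGgctcgctctt

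The 6 arrays had medians of 6.55 to 6.60, and each correlated with the others with a mean r of 0.994 to 0.996 across probe sets. The lowest of these mean correlations belonged to wild-type cage 1, which is also the pool with the highest muscle level. Duoxa2, a gene of the targeted locus, read 8.14 ± 0.81 (SD, n = 3) in wild type and 5.79 ± 0.21 (SD, n = 3) in Duoxa-/-. That difference of -2.34 (SE 0.33) also had a limma adjusted p of 0.794, so an adjusted p of this size does not show that a gene was unchanged. Enterocyte genes were bright, with Fabp6, the ileal bile acid binding protein, between 14.64 and 14.83 in all 6 pools.

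The muscle genes set the 2 pools of cage 1 apart, in opposite directions. With each gene centred on its own mean and the 10 genes averaged, the level was 0.43 in the wild-type pool of cage 1 and -0.31 in the Duoxa-/- pool of the same cage. In cage 2 the wild-type pool stood at -0.11 and the Duoxa-/- pool at 0.058, and in cage 3 they stood at 0.038 and -0.10. All 10 genes were highest in the wild-type pool of cage 1, as were 4100 of all 18193 genes. All 10 were lowest in the Duoxa-/- pool of cage 1, as were 2516 of all genes. The pools spanned 0.74 in all, and the 4 pools of cages 2 and 3 spanned 0.17. By genotype the level was 0.12 ± 0.28 (SD, n = 3) for wild type and -0.12 ± 0.19 (SD, n = 3) for Duoxa-/-, so the difference of -0.24 was smaller than the spread between wild-type pools.

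**Figure D1:**
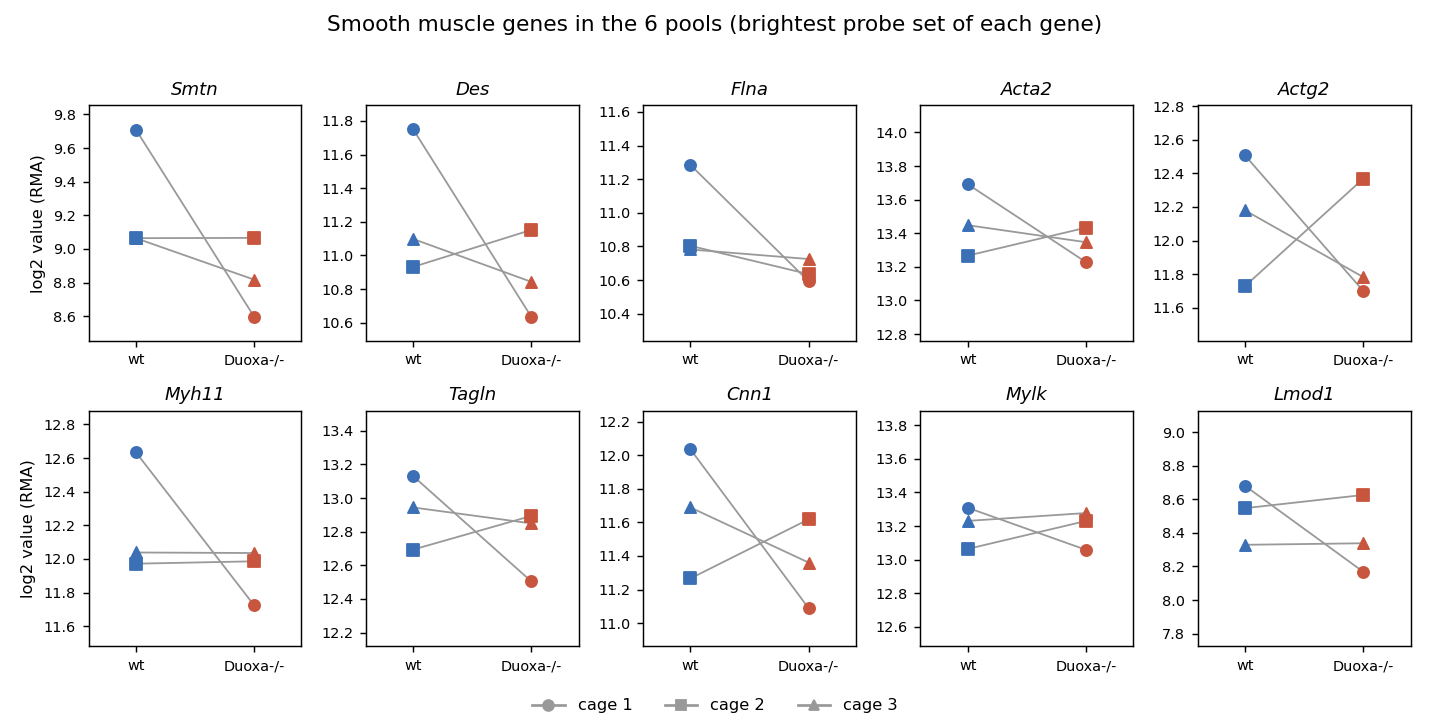
Log2 value (vertical axis, each panel spanning 1.4 units) of the brightest probe set of each of the 10 genes in wild-type (blue) and Duoxa-/- (red) pools, with the 2 pools of a cage joined by a line and cages marked by shape. In all 10 panels the wild-type pool of cage 1 is the highest point and the Duoxa-/- pool of cage 1 the lowest, as for 5.05% of all genes.

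The filament genes come first, the actins and the myosin heavy chain. Acta2, the alpha actin of smooth muscle, read 13.69, 13.27 and 13.45 in the wild-type pools of cages 1, 2 and 3 and 13.23, 13.43 and 13.35 in the Duoxa-/- pools (probe set 1416454_s_at). The groups overlapped, with cage 1 holding both the highest and the lowest pool, and the difference was -0.13 (SE 0.12). Actg2, the gamma actin typical of the muscle of the gut, read 12.51, 11.73 and 12.18 in wild-type pools and 11.70, 12.37 and 11.78 in Duoxa-/- pools (1422340_a_at). It was the member that turned most between cages, with differences, Duoxa-/- minus wild type, of -0.81 in cage 1, 0.64 in cage 2 and -0.40 in cage 3 and a mean difference of -0.19 (SE 0.22). Myh11, the smooth muscle myosin heavy chain, read 12.63, 11.97 and 12.04 in wild-type pools and 11.72, 11.99 and 12.04 in Duoxa-/- pools (1448962_at). Its 4 pools of cages 2 and 3 lay within 0.067 of one another, while its 2 pools of cage 1 were 0.91 apart, and the mean difference was -0.30 (SE 0.17).

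The genes that switch or tune contraction turned between cages 1 and 2 as well. Mylk encodes myosin light chain kinase, and its brightest probe set (1425505_at) read 13.31, 13.06 and 13.23 in wild-type and 13.06, 13.23 and 13.28 in Duoxa-/- pools, a difference of -0.012 (SE 0.099). Cnn1, calponin, an actin-binding inhibitor of the myosin ATPase, read 12.03, 11.27 and 11.69 in wild-type and 11.09, 11.62 and 11.36 in Duoxa-/- pools, a difference of -0.31 (SE 0.20). Tagln, the actin-binding protein transgelin, read 13.13, 12.69 and 12.94 against 12.50, 12.89 and 12.85, a difference of -0.17 (SE 0.14). In all 3 genes cage 1 was lower and cage 2 higher in the Duoxa-/- pool, and the groups overlapped. Smtn, smoothelin, an actin-associated protein of contractile smooth muscle cells, read 9.71, 9.06 and 9.06 in wild-type and 8.60, 9.07 and 8.82 in Duoxa-/- pools. Its difference of -0.45 (SE 0.19, 95% interval -0.88 to -0.026) was the largest of the 16 probe sets. Limma gave it an adjusted p of 0.794, and the 3 wild-type pools did not separate from the Duoxa-/- pool of cage 2.

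The genes of the supporting framework followed the same order of pools in cage 1. Des, desmin, the intermediate filament of muscle, read 11.75, 10.93 and 11.10 in wild-type pools and 10.63, 11.15 and 10.84 in Duoxa-/- pools (1426731_at), a difference of -0.38 (SE 0.21). Flna, the actin crosslinker filamin A, which many cells other than muscle also make, read 11.28, 10.80 and 10.78 in wild-type and 10.59, 10.64 and 10.73 in Duoxa-/- pools. Flna was the 1 gene whose Duoxa-/- pools all lay below its wild-type pools, as did 5.36% of all probe sets. Its differences were -0.69, -0.17 and -0.057 in cages 1, 2 and 3, with a mean difference of -0.31 (SE 0.14, limma adjusted p = 0.794). Lmod1, leiomodin 1, which nucleates actin filaments, read 8.68, 8.55 and 8.33 in wild-type and 8.17, 8.63 and 8.34 in Duoxa-/- pools, a difference of -0.14 (SE 0.14) that was near 0 in cages 2 and 3.

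Between the genotypes, none of the 16 probe sets passed. With limma fitted on all 45037 probe sets, 0 of 16 had an adjusted p under 0.05 (adjusted p 0.794 to 0.985), as did 0% of all probe sets, and 1 of 16, Smtn, had an unadjusted p under 0.05, against 5.98% of all. With cage as a block 0 of 16 passed either way, against 6.6% of all probe sets at the unadjusted threshold. On average 14 of the 16 probe sets were lower in Duoxa-/- pools (49.6% of all were), and at the level of genes all 10 were lower (53.9% of 18193 genes were). The median difference over the 10 genes was -0.24, beside -0.012 over all genes. None of the 16 was lower by 1.5-fold or more on average, as 0.0688% of all probe sets were, and the 95% intervals reached no further than -0.88 and 0.41. The sign of the mean rests on cage 1: without its 2 pools the median over the 10 genes was 0.022. Leaving out 1 pool at a time, it was -0.080 without wild-type cage 1, -0.13 without Duoxa-/- cage 1 and -0.39 without wild-type cage 2. Only 1 of the 16, Flna, was lower in all 3 cages, against 14.3% of all probe sets, and 0 were higher in all 3, against 15.3%.

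**Figure D2:**
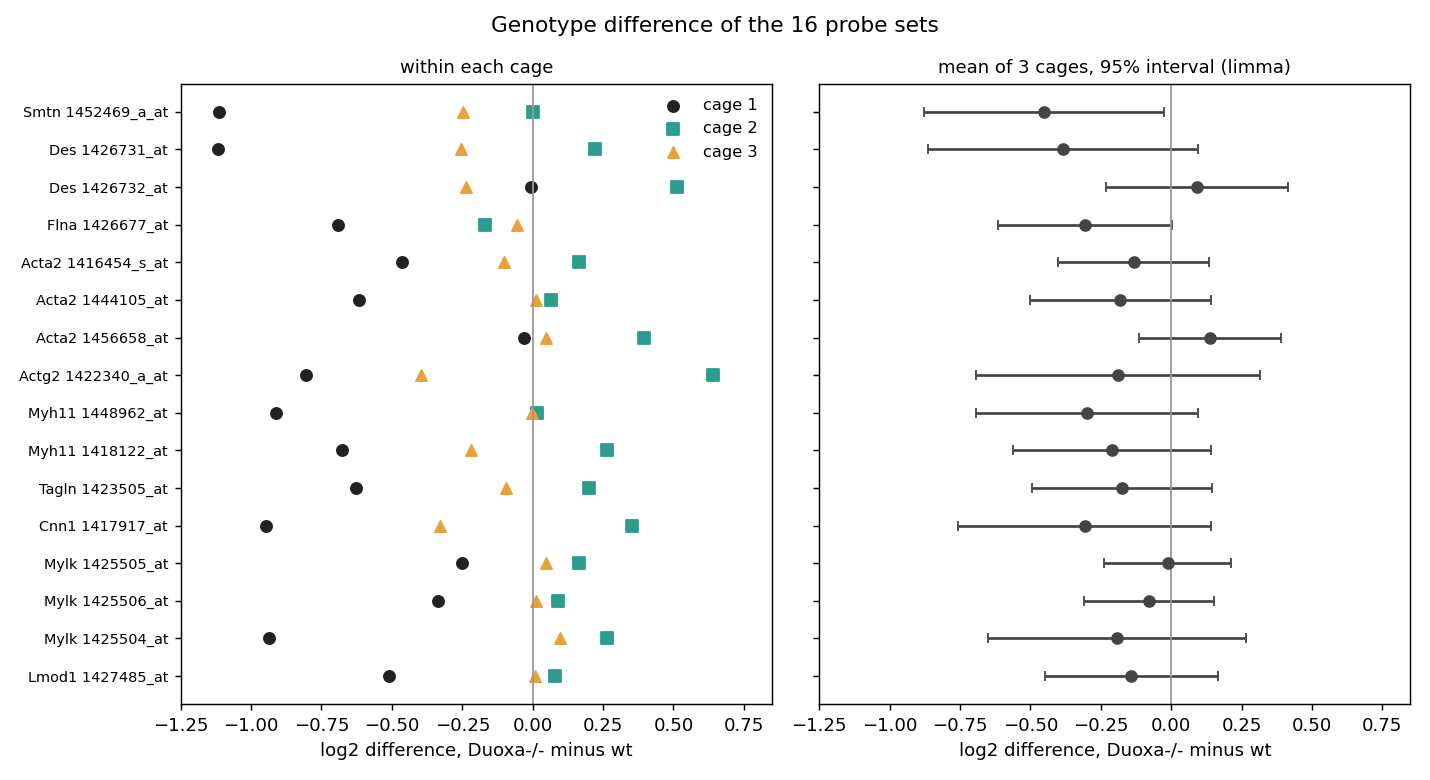
Log2 difference, Duoxa-/- minus wild type, of the 16 probe sets, on the left within each cage and on the right as the mean over cages with its 95% interval from limma. The cage 1 points (black) reach -1.12, those of cage 2 (green) lie at or above 0 for every probe set but Flna, and 15 of the 16 intervals on the right cross 0, the exception being Smtn.

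Cage by cage, the differences were not alike in size or, for most of the genes, in sign. With 1 pool of each genotype in a cage, a difference within a cage has no error of its own. In cage 1 all 10 genes were lower in the Duoxa-/- pool, with a median of -0.75, and 8 of the 10 were lower by more than 0.5 (3.29% of all genes were). Smtn and Des differed by -1.11 and -1.12 there, or were 2.16-fold and 2.17-fold lower, Cnn1 differed by -0.95 and Myh11 by -0.91. In cage 2, 9 of the 10 genes were higher in the Duoxa-/- pool, with a median of 0.17, and in cage 3, 8 of the 10 were lower, with a median of -0.10. Of all 18193 genes, 8985, 10485 and 9074 were lower in the Duoxa-/- pools of cages 1, 2 and 3. Some of the member values counted were near 0, among them Smtn (0.0017) and Myh11 (0.014) in cage 2 and Myh11 (-0.0031) in cage 3. Lower in cage 1 and higher in cage 2 was the order for 9 of 10 genes and for 15 of 16 probe sets, an order that 18.6% of all genes and 22.6% of all probe sets had. The wild-type pool of cage 1 was the highest and the Duoxa-/- pool of cage 1 the lowest of the 6 for 14 of 16 probe sets, against 4.5% of all probe sets. The 2 exceptions were the dim probe sets of Des and Acta2.

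Whether the genotype difference of cage 1 departed from that of cages 2 and 3 was tested with limma in a fit of genotype, cage and their interaction for cage 1, a contrast chosen because cage 1 was known to stand out. The estimate was negative for all 16 probe sets, from -1.12 (Mylk 1425504_at, SE 0.18) to -0.14 (Des 1426732_at). Adjusted over all probe sets, 0 of 16 passed (adjusted p 0.362 to 0.923), as did 0% of all. At an unadjusted p under 0.05, 11 of 16 were lower in cage 1, against 4.61% of all probe sets in that direction. Because the contrast was chosen from these same values, an excess of small unadjusted p was to be expected. The genes also varied together over the pools (median r of 0.85 between pairs of genes), so the 16 probe sets are not separate observations. The count of 11 therefore cannot decide whether cage 1 departed, and no conclusion is drawn from it. The interaction fit leaves 1 residual degree of freedom, so its error rests on the spread that limma borrows from the other probe sets. The 3 cages were then compared as such: with genotype in the fit, limma's F-test between them called 0 of 16 (adjusted p 0.894 to 0.987) and 0.00222% of all probe sets, and 0 of 16 had an unadjusted p under 0.05, against 5.55% of all. The muscle levels of the 2 pools of cage 1 were 0.43 and -0.31, so they largely cancel in the average of a cage. The F-test therefore cannot decide whether cage 1 departed, and no conclusion is drawn from it.

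Probe sets of 1 gene did not always give the same size of difference. For Mylk in cage 1, 1425504_at differed by -0.94, from 9.41 to 8.47, while 1425505_at and 1425506_at, both above 13, differed by -0.25 and -0.33. For Acta2, the probe set at 8.49 in wild-type and 7.87 in Duoxa-/- pools of cage 1 (1444105_at) differed by -0.62, against -0.46 for the one above 13. Both Myh11 probe sets were lower in the Duoxa-/- pool of cage 1, with differences of -0.91 (1448962_at) and -0.68 (1418122_at). Des 1426732_at and Acta2 1456658_at had means of 5.15 and 5.65, below the median of all probe sets, 6.58, and they did not share the pattern of cage 1, with differences of -0.0042 and -0.029 there. For both, the highest pool was the Duoxa-/- pool and the lowest the wild-type pool of cage 2. The 14 other probe sets lay above that median. The 4 with means above 13 or close to it (Tagln at 12.84) ranged over 0.25 to 0.63 between the highest and the lowest pool, and the 10 other probe sets above that median over 0.51 to 1.12. Of these 10, Lmod1 (0.51) and Acta2 1444105_at (0.62) lay within the range of the brightest 4, Myh11 1418122_at (0.68) and Flna (0.69) just above it, and the other 6 at 0.81 or more.

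**Figure D3:**
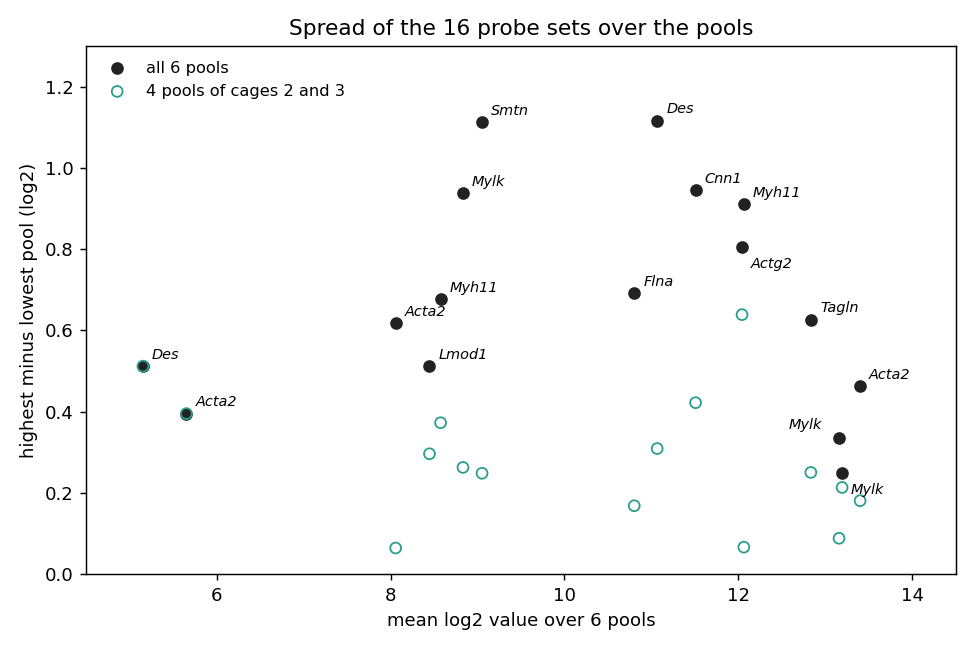
Distance between the highest and the lowest pool (vertical axis, log2) against the mean over 6 pools (horizontal axis, log2) for the 16 probe sets, filled for all 6 pools and open for the 4 pools of cages 2 and 3. Without cage 1 the distance of the Smtn probe set falls from 1.11 to 0.25 and that of the bright Myh11 probe set from 0.91 to 0.067, while that of Actg2 stays at 0.64.

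The genes varied together over the 6 pools. Across the 45 pairs of the 10 genes, Pearson's r over the 6 arrays had a median of 0.85, from 0.41 for Mylk with Lmod1 to 0.98 for Acta2 with Cnn1. Among 11598 other genes at or above the median signal, those most like the mean of the 10 were Mmp17, Ntn1, Tpsg1, 4933402C06Rik, Ckm, Uchl1, Ggact, Rimklb, Tmem175 and Rhof, each with r between 0.98 and 0.99. Ckm, muscle creatine kinase, read 8.34, 7.72 and 7.84 in wild-type and 7.52, 7.83 and 7.66 in Duoxa-/- pools, and Uchl1, a ubiquitin hydrolase of neurons, 7.20, 6.57 and 6.65 against 6.22, 6.62 and 6.53. Both were highest in the wild-type and lowest in the Duoxa-/- pool of cage 1. Zfp120, Zfp959, Alkbh1, Chd1l and Snw1 ran most nearly opposite, each with r of -0.99. With 6 arrays and this many genes, values of r near 1 are easily reached, and they are given as a description.

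Most other contractile and cytoskeletal genes of smooth muscle were also lower in the Duoxa-/- pool of cage 1. Of 30 genes on that list 29 were measured, 24 of them lower in that pool, with a median of -0.35, and 20 highest in the wild-type pool of that cage. Of all 18193 genes, 8985 were lower in that Duoxa-/- pool and 4100 highest in the wild-type pool of that cage. Over all cages 21 were lower and 8 higher, with a median of -0.054, while 9797 of 18193 genes were lower. None passed (limma, adjusted over all probe sets), and 1 of the 29 had an unadjusted p under 0.05, against 984 of 18193 genes. That 1 was Ppp1r14a, an inhibitor of myosin phosphatase, at 8.61, 8.37 and 8.46 in wild-type and 7.71, 8.36 and 8.05 in Duoxa-/- pools, a difference of -0.44 (SE 0.15, adjusted p = 0.794). The next smallest p were those of the myosin light chain Myl6 (-0.18, SE 0.084) and of talin, Tln1 (-0.17, SE 0.090), which links integrins to actin. Of the brightest genes, the regulatory light chain Myl9 read 13.05 and 12.49 in the wild-type and Duoxa-/- pools of cage 1, 12.54 and 12.74 in cage 2, and 12.85 and 12.89 in cage 3. The tropomyosins Tpm2 and Tpm1, which lie along the actin filament, read 13.37 and 13.12 in the wild-type pool of cage 1 against 13.03 and 12.70 in its Duoxa-/- pool. Caldesmon, Cald1, read 12.78 and 12.47 there.

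The list of calcium handling, potassium channels, kinases and transcription factors of smooth muscle held 28 genes. Of these 20 were measured, 11 lower and 9 higher, with a median of -0.0027, and 15 were lower in the Duoxa-/- pool of cage 1, with a median of -0.22. Of all 18193 genes, 9797 were lower over all cages and 8985 in cage 1. None passed (limma), and 1 of the 20 had an unadjusted p under 0.05, against 984 of 18193 genes. That 1 was Mef2c, a transcription factor of many cell types, with a difference of 0.18 (SE 0.079). Chrm3, the muscarinic receptor for acetylcholine, differed by -0.22 (SE 0.099) at a level of 4.58, below the median of all probe sets. Srf, serum response factor, read 9.27, 9.23 and 9.21 in wild-type and 9.03, 9.07 and 9.14 in Duoxa-/- pools, a difference of -0.16 (SE 0.077, adjusted p = 0.794). The sarcoplasmic calcium pump Atp2a2, which other cells also use, stood between 12.68 and 12.80 in all pools, and the widely expressed Rhoa, Rock1 and Ppp1r12a varied by less than 0.3 each. Myocd, the cofactor of serum response factor in smooth muscle, is named after its values were seen, because it ranged over 1.72. It read 7.85 and 7.15 in the wild-type and Duoxa-/- pools of cage 1, 6.35 and 8.07 in cage 2, and 7.35 and 7.52 in cage 3, a difference of 0.40 (SE 0.36, limma adjusted p = 0.838).

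Lists of neighbouring cell types were read beside the muscle level in cage 1. Enteric neurons and glia, which in part lie between the muscle layers, had a mean level of 0.23 in the wild-type and -0.19 in the Duoxa-/- pool of cage 1, and between -0.052 and 0.029 in the other 4 pools, over 14 measured genes. Their brightest gene, the neuropeptide Vip, read 11.12 and 10.59 in the wild-type and Duoxa-/- pools of cage 1 and 10.68 to 10.81 elsewhere. The 4 measured genes of the interstitial cells of Cajal, the pacemakers of the gut, stood at 0.19 and -0.14 in cage 1. Kit and Ano1 differed by -0.70 and -0.62 there, while Prkcq and Thbs4 differed by 0.021 and -0.0098. Fibroblast genes stood at 0.42 in the wild-type pool of cage 1, where 10 of 12 were highest, against 4100 of all 18193 genes. Their level was -0.0038 in its Duoxa-/- pool, and low in both pools of cage 3 (-0.21 and -0.17). Col3a1, a fibrillar collagen, read 13.52 and 13.13 in cage 1, 12.97 and 13.15 in cage 2 and 12.66 in both pools of cage 3. Mural cells of vessels stood at 0.16 and -0.0068 in cage 1, and endothelium at 0.10 and -0.028. The part of these cells in the muscle values was not tested.

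The mean level of T cell genes ran the other way in cage 1, at -0.28 in the wild-type and 0.19 in the Duoxa-/- pool over 9 genes. B cell genes stood at -0.22 and 0.19 over 6 genes. Not every gene followed: 3 of the 9 T cell genes, among them Cd4 (-0.45), and 2 of the 6 B cell genes were lower in that Duoxa-/- pool. In cage 2 the T cell level was 0.50 in the wild-type and -0.24 in the Duoxa-/- pool. Gzma, a protease of cytotoxic lymphocytes and the brightest gene of that list, read 10.48 and 11.51 in cage 1 and 12.03 and 10.78 in cage 2. Enterocyte genes stood at 0.13 in the wild-type and -0.072 in the Duoxa-/- pool of cage 1 over 14 genes. Of these 14 genes, 9 were lower in that Duoxa-/- pool, with a median difference of -0.088, against 8985 of all 18193 genes. Fabp1 and Alpi, which serve fat uptake and the brush border, differed by -1.17 and -0.84, and Cdx2 and Epcam, general markers of the epithelium, by 0.052 and 0.010. The part of epithelial or immune cells in the muscle values was not tested.

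**Figure D4:**
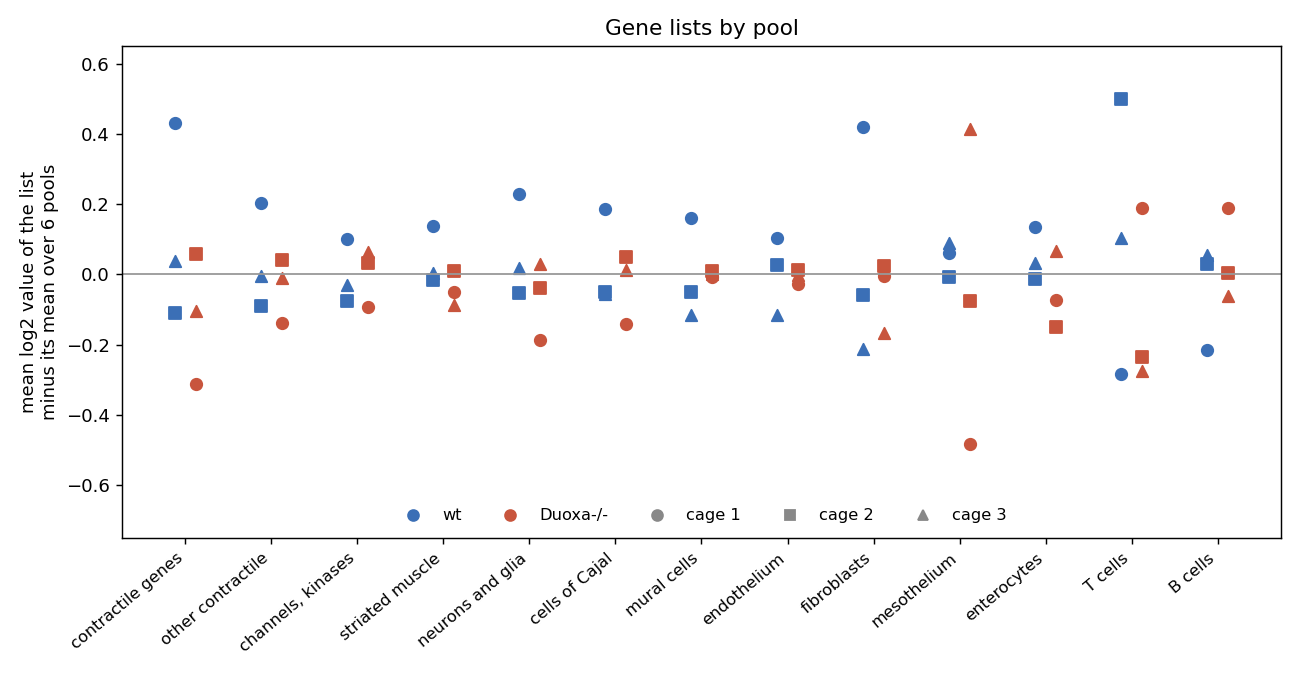
Mean log2 value of each gene list minus its mean over the 6 pools (vertical axis), 1 point for each wild-type (blue) and Duoxa-/- (red) pool, cages by shape. For the contractile genes the wild-type pool of cage 1 stands at 0.43 and the Duoxa-/- pool of cage 1 at -0.31, with the other 4 pools between -0.11 and 0.058.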

How the data were processed

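Total RNA of ileal mucosa was treated with deoxyribonuclease, cleaned on silica columns and labelled with biotin, per the labels' protocols, and each array took the pooled RNA of 2 to 3 mice of 1 genotype and cage. The deposited values are log2 probe-set summaries that the authors made by RMA with affy, per the submitters' processing notes, which give no version or setting here. RMA equalises the distributions of the arrays, so values are relative to the rest of each array. Neither scanner intensities nor detection calls entered, and depth has no meaning for arrays, whose number limits the precision.

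Of 45101 rows, 64 controls were dropped, leaving 45037 probe sets: 34945 carried 1 gene symbol, 932 several and 9160 none; through gene identifiers 34741 matched RefSeq (GRCm38.p6) and 0 symbols changed. A gene was represented by its probe set of the highest mean (18193 genes). Differences are Duoxa-/- minus wild type, tested in R 4.3.3 by limma 3.58.1 (lmFit and eBayes, two-sided, Benjamini-Hochberg over all probe sets, adjusted p under 0.05) without a cage term. SE and intervals are limma's; SDs are over 3 pools. The p values of the genotype fit measure the spread between pools and leave the pairing by cage aside. Those of the interaction for cage 1 rest largely on the spread that limma borrows from other probe sets. The fits were run on simulated data whose probe sets varied independently, unlike the members here. For the interaction of cage 1, that check required no minimum share of detected changes. Tables used Python 3.11.15 with pandas 2.3.3, and figures matplotlib 3.10.9.

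Per the series' design text each cage was 1 litter, so pools are paired by cage. After subtracting group means, the 2 pools of cages 1, 2 and 3 correlated with r of -0.18, 0.16 and 0.34 across genes, and pools of different cages with r from -0.44 to 0.40. The members, the lists and the contrast of cage 1 were chosen with earlier results of these data known. The text names all member probe sets, of each list some of the 4 genes with the highest mean and the 3 with the smallest p, the 10 genes most like the mean of the members and the 5 least like it. Myocd, Cdx2, Epcam and Tnni2 were named after their values were seen, to show how their lists vary. The striated muscle and mesothelium lists are given in the closing section.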

Additional observations from a re-analysis of the deposited data

How the results depend on the processing

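No call changed under any alternative run: 0 member probe sets passed between genotypes, between cages or for cage 1 against the others with requantiled or median-centred arrays, without dim or shared probe sets, with an intensity trend or with 1 row for each gene, nor between genotypes with array weights, with cage as a replicate block (0 passed) or without cage 1, nor with any pool left out (0 in each). The interaction for cage 1 could not be fitted with a pool left out, as no residual degrees of freedom remain. With an intensity trend it called 14 of all 45037 probe sets against 0 without, and the smallest adjusted p of a member was 0.118. Without cage 1, F-test and pool levels were added after the data were seen. Without probe sets ending in _s_at, _x_at or _a_at, 8 of the 10 genes remained and the median was -0.24, and with a gene's probe sets averaged it was -0.18. With a pool left out the median ranged from -0.39 to -0.080. Without cage 1 the sign turned for Acta2 (0.033 for 1416454_s_at and 0.038 for 1444105_at), Actg2 (0.12), Myh11 (0.0055 for 1448962_at and 0.022 for 1418122_at), Tagln (0.053), Cnn1 (0.012), Mylk (0.11 for 1425505_at, 0.050 for 1425506_at and 0.18 for 1425504_at) and Lmod1 (0.044). Mylk 1425505_at also turned when the arrays were requantiled (0.0089). With a pool left out, its difference ranged from -0.081 to 0.053, that of 1425506_at from -0.14 to 0.020, that of 1425504_at from -0.35 to 0.046 and that of Des 1426732_at from -0.064 to 0.18.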

Other observations

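Striated muscle genes, a list kept as a contrast, were mostly dim, with 5 of 14 above the median of all probe sets. Over all cages 9 of the 14 were lower and 5 higher in Duoxa-/- pools, against 9797 of all 18193 genes lower. The median difference in cage 1 was -0.069, with list levels of 0.14 and -0.049 in its wild-type and Duoxa-/- pools. In cage 1, 9 of the 14 were lower in the Duoxa-/- pool, against 8985 of all 18193 genes. Ckm, which belongs to this list, differed by -0.82 there. Mylpf and Tnni2, a myosin light chain and a troponin of fast skeletal fibres, were higher in that pool, with differences of 0.32 and 0.25. The brightest gene of the list, the skeletal muscle actin Acta1, read 8.69 and 7.64 in the wild-type and Duoxa-/- pools of cage 1 and 7.91 and 7.74 in cage 3, and it differed by 0.37 in cage 2, from 7.62 in the wild-type pool. The cardiac actin Actc1 read 8.16 and 7.24 in cage 1, 6.95 and 7.43 in cage 2, and 7.34 and 6.89 in cage 3. As for Acta2 and Actg2, the Duoxa-/- pool was lower in cages 1 and 3 and higher in cage 2, and since actin genes are similar in sequence, whether their probe sets read smooth muscle transcripts was not tested.

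Mesothelium, the covering of the outer gut wall, was read from 6 genes, of which Krt19 is also made by the epithelium and stood at 13.84 to 13.92. The list level was -0.48 in the Duoxa-/- pool of cage 1 and 0.41 in the Duoxa-/- pool of cage 3, and between -0.075 and 0.090 in the other 4 pools. Upk3b, a marker of that layer, read 6.89 and 5.76 in the wild-type and Duoxa-/- pools of cage 1, 6.51 and 6.59 in cage 2, and 7.02 and 7.62 in cage 3. In cage 1, 4 of the 6 genes were lower in the Duoxa-/- pool, against 8985 of all 18193 genes. Wt1 and Krt19 were higher there, by 0.18 and 0.061. Only 3 of the 6 genes lay above the median of all probe sets. The Duoxa-/- pool of cage 1 was the lowest for this list and for the muscle genes (-0.31), while the Duoxa-/- pool of cage 3, the highest for this list, had a muscle level of -0.10. The part of mesothelium in the muscle values was not tested.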
